A study of Mus musculus with 42 samples.

Results

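Linker histone H1 is the protein that sits on the DNA where it enters and leaves the nucleosome, and it helps to fold chromatin more tightly. Mice carry several H1 genes, and CHD8, the chromatin remodeler deleted in this study, is known to bind H1 and to bring it to the promoters of some target genes. H1f1, H1f2, H1f3, H1f4 and H1f5 encode the variants made mainly while DNA is replicated, and H1f6 encodes a testis variant best known from spermatocytes. H1f0 and H1f10 are expressed independently of replication, and H1f0 is known to accumulate in cells that divide little. These 8 genes are a list of names, defined by gene family and not by a threshold on measured values, among the 27179 genes of the count table, and all 8 are in it.

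RNA was sequenced from cells that magnetic beads had enriched by their surface antigens from testes of C57BL/6J males at 10 days post-partum (10 dpp). Thy1 marks mostly undifferentiated spermatogonia and c-Kit mostly spermatogonia that have begun to differentiate; the c-Kit beads were applied first, and Thy1+ cells were taken from what those beads did not hold. Mutant mice were Ddx4-Cre; Chd8 F/- and controls were Ddx4-Cre; Chd8 +/F, so that controls also carry the Cre transgene and a floxed allele, and Ddx4 drives Cre in germ cells and not in the somatic cells of the testis. By these genotypes, Cre leaves control germ cells heterozygous for the deletion. The - allele of the mutants is inherited, so their somatic cells are heterozygous too, whereas the somatic cells of controls are not. There were 3 libraries in each of the 4 groups, with total counts from 32266861 to 45396233. The labels do not say whether the libraries of a group came from separate pups, so p-values measure the spread between these libraries, which may be partly technical.

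Each group is an enriched fraction and also held RNA of other cells. Between the control groups, all 6 markers of undifferentiated spermatogonia were higher in Thy1+ cells, and 5 of 6 were called (as defined below). Lin28a, with a log2 fold change of 0.19, was not called. All 4 markers of differentiating spermatogonia were called higher in c-Kit+ cells. Of all tested genes, 20.7% were called higher and 7.08% lower in Thy1+ than in c-Kit+ controls. All 6 stromal markers were also higher in Thy1+ cells, with a summed level of 10996 to 14323 CPM (counts scaled by library size) against 1794 to 2241 CPM in c-Kit+ controls. Library 1 stood apart in both Thy1+ groups, with Sertoli markers at 1953 CPM in sum in the control and 2541 CPM in the mutant, against 406 and 440.1 CPM in the other control and 828 and 867 CPM in the other mutant libraries. Chd8 itself was at 269.6 ± 9.41 CPM in Thy1+ controls and 274 ± 20.7 CPM in Thy1+ mutants, and at 281 ± 22.0 and 305 ± 9.49 CPM in control and mutant c-Kit+ cells (mean ± SD, n = 3). Counts per gene include exons outside the deleted ones, so they cannot show the deletion.

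How an H1 mRNA ends bears on whether poly(A) selection keeps it. The libraries were made from RNA selected by its poly(A) tail, whereas mRNAs of replication-dependent histone genes normally end just after a short stem-loop and have no tail. A stem-loop of this kind was found in 6 of the 8 genes, within or just after the counted exon, and in neither H1f0 nor H1f10. The 16 bases are shown because they separate the genes by the type of transcript that is sampled; capitals mark the stem-loop, given on the strand of the gene (GRCm38.p6, the mm10 sequence).
H1f1, chr13:23764392-23764407, plus strand: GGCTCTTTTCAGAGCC
H1f2, chr13:23739512-23739527, plus strand: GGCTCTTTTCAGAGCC
H1f3, chr13:23555787-23555802, plus strand: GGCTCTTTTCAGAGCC
H1f4, chr13:23621782-23621797, minus strand: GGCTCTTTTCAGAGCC
H1f5, chr13:21779837-21779852, minus strand: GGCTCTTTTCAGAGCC
H1f6, chr13:23696525-23696540, plus strand: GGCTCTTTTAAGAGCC
The first 5 were identical, and that of H1f6 differed from them in the loop. In the table, the exon of H1f1 ended 7 bases after the stem-loop and that of H1f5 stopped 46 bases before the end of it. The exons of H1f2, H1f3, H1f4 and H1f6 ran on for 840, 2206, 1154 and 182 bases, so that transcripts that pass the stem-loop are counted too. A poly(A) signal (AATAAA or ATTAAA) lay in the last 50 counted bases of H1f0, H1f2, H1f3, H1f6 and H1f10. Values for the cluster genes therefore describe their polyadenylated or otherwise retained transcripts, not all of their mRNA.

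**Figure D1:**
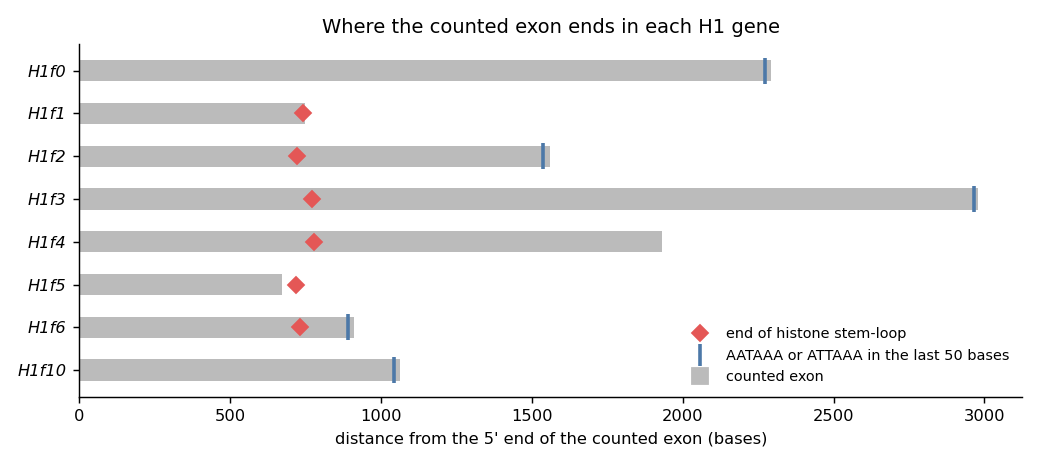
Counted exon of each H1 gene (grey bar) by distance in bases from its 5′ end, with the end of the stem-loop (red diamond) and the last poly(A) signal in its final 50 bases (blue line). H1f0 and H1f10 have no stem-loop, and in H1f2, H1f3 and H1f4 840 to 2206 counted bases lie beyond it.

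The genes lie in 3 places. H1f0 is a single-exon gene on chromosome 15 (79028212 to 79030504, plus strand) and H1f10 a single-exon gene on chromosome 6 (87980421 to 87981482, minus strand). The other 6, also with 1 exon each, lie in the histone cluster of chromosome 13, H1f2 at 23738807 to 23740367 and H1f1 at 23763668 to 23764414 on the plus strand (mm10, as counted). Their upstream sequences followed the same division. In the 250 bases before the start site, the H1 box (AAACACA), an element known from promoters of replication-dependent H1 genes, was present in H1f2, H1f3, H1f4, H1f5 and H1f6, with its first base 112 to 122 bases before the start. CCAAT and a TATA motif (TATANA) were found in all 6 cluster genes. None of the 3 motifs was found in H1f0 or H1f10, where GC made up 74.4% and 75.2% of the bases against 47.6% to 56.8% in the cluster genes. Searched on both strands, AAACACA occurs in 6.22%, CCAAT in 34.5%, TATANA in 23.4% and all 3 together in 0.696% of 27025 promoters of this length (RefSeq, GRCm38.p6). The 4 genes with enough counts to compare are shown, 250 bases up to the start site, with these motifs in capitals; overlapping TATANA matches run together.
H1f0, chr15:79027962-79028211, plus strand: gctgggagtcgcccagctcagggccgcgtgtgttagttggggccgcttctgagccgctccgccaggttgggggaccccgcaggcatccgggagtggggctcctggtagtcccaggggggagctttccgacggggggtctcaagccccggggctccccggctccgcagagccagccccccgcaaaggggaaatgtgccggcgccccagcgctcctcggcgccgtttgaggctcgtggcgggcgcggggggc
H1f10, chr6:87981483-87981732, minus strand: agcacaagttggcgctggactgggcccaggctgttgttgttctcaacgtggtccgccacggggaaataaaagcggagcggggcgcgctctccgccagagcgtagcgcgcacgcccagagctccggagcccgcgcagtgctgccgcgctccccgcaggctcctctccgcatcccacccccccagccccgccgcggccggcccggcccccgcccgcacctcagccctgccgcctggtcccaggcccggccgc
H1f2, chr13:23738557-23738806, plus strand: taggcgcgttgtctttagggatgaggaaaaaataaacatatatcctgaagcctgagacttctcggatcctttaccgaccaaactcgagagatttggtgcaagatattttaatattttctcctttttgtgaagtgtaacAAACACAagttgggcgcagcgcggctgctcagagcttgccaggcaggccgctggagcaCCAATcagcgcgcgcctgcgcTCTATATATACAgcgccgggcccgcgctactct
H1f1, chr13:23763418-23763667, plus strand: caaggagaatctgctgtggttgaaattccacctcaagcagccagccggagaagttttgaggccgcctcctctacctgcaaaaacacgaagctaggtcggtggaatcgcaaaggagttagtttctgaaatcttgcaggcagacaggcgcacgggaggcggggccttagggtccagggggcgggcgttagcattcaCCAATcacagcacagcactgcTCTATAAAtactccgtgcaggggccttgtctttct
The CCAAT and TATA motifs of H1f2 and H1f1 stand at nearly the same distance from the start site, with CCAAT beginning 54 and 56 bases before it. The letters AAACACA are absent from this stretch of H1f1, which says nothing about what binds there.

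Per length of counted exon, H1f0 and H1f10 made up most of the H1 signal in every library. Over the 12 libraries, the mean level was 83.7 CPM per kb for H1f0, 68.3 for H1f10, 8.49 for H1f2 and 4.45 for H1f1. H1f5 had 0.601, H1f4 0.193, H1f6 0.178 and H1f3 0.116 CPM per kb. The order of the first pair and of H1f2 and H1f1 was not the same in every group: in control c-Kit+ cells H1f10 (111) exceeded H1f0 (54.8), and H1f1 (6.09) exceeded H1f2 (4.75 CPM per kb). Both orders depend on the division by length. In CPM, H1f0 (126) was above H1f10 (118) and H1f2 (7.41) above H1f1 (4.55) in these cells. Of the counted exon, 53.8% lies after the stem-loop in H1f2 and 0.937% in H1f1. H1f5, H1f4, H1f6 and H1f3 overlapped each other in their library values, and their order is within that spread. Counts of H1f3, H1f4, H1f5 and H1f6 ran from 0 to 45 per library, and H1f3, H1f5 and H1f6 were each at 0 in 1 library, where 3 counts, or 0.0822 to 0.0911 CPM, is the level that a count of 0 still allows. These limits cover counting error only and take counts as independent. Both reads of a pair were counted, and 65.6% to 69.5% of the counts from 1 to 19 in a library were even, so the limits may be too low. Of the other linker histone genes, H1f8, an oocyte variant, had 14 to 58 counts, whereas the spermatid genes H1f7 and Hils1 had at most 2 and 5 counts.

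**Figure D2:**
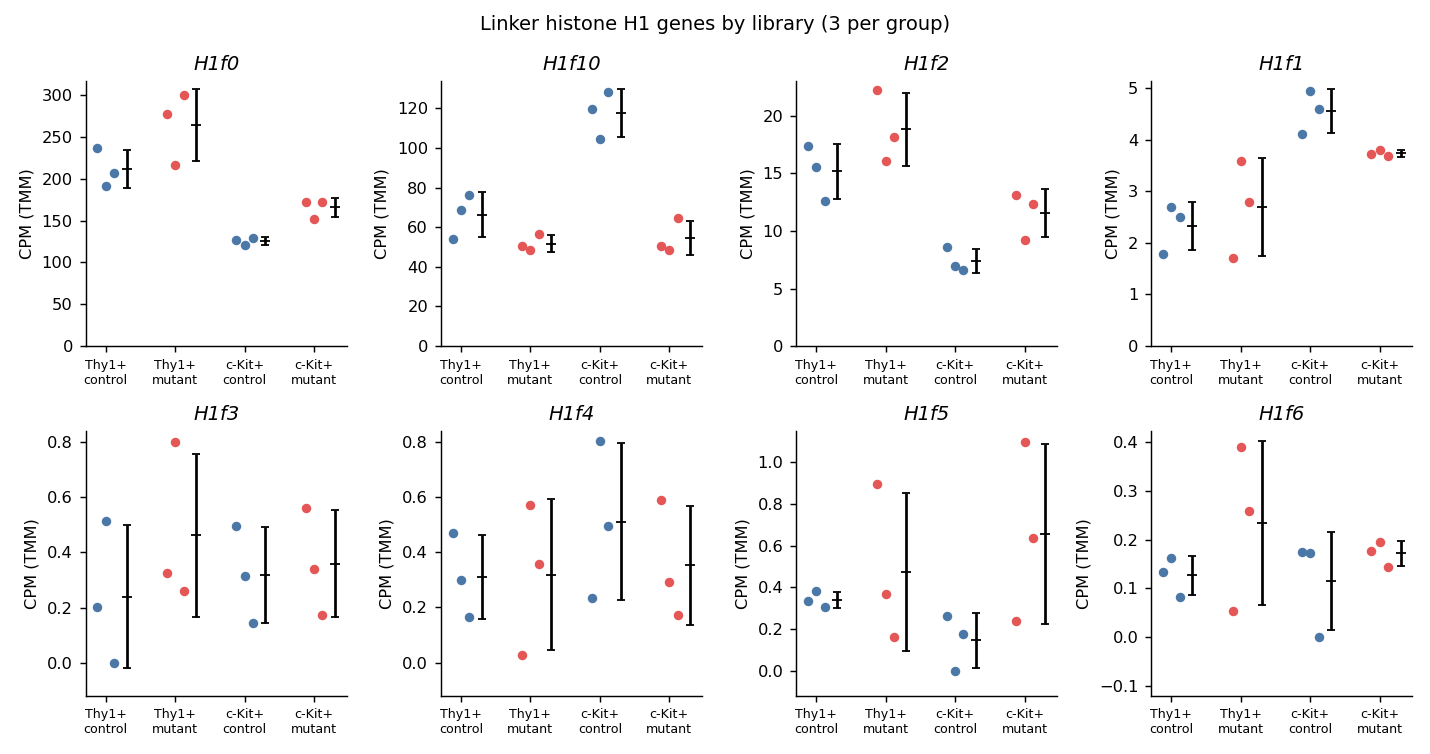
Level of each H1 gene (CPM after TMM scaling, y axis different for each gene) in the 3 libraries of each group, controls in blue and mutants in red, with the mean and SD beside the points. The 3 control c-Kit+ libraries of H1f10 sit above 100 CPM and the other 9 libraries below 80 CPM.

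H1f10, which encodes the replication-independent variant H1x, was at 0.464 of its control level in c-Kit+ cells of the Chd8 mutants. It stood at 119.9, 105 and 128 CPM in the control c-Kit+ libraries and at 50.7, 48.3 and 64.6 CPM in the mutant ones. The groups did not overlap, and every mutant library lay far under the lowest control. The mean fell from 118 ± 12.0 to 54.6 ± 8.81 CPM (SD, n = 3), a log2 fold change of −1.17 ± 0.12 (SE; adjusted p = 0.000192, edgeR quasi-likelihood test with Benjamini-Hochberg adjustment over 17134 genes). Of all tested genes, 7.41% were called lower here (adjusted p under 0.05 and a log2 fold change beyond 0.5 in size), and 407 genes had a lower log2 fold change than H1f10. The call was made in all 15 alternative analyses, with log2 fold changes from −1.31 to −1.09. Among these, the setting without a minimum fold change is the same fit and could not lose the call.

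H1f2, the cluster member with the most counts, went the other way in c-Kit+ cells. Its control libraries had 8.62, 6.98 and 6.62 CPM and its mutant libraries 13.1, 9.20 and 12.4 CPM. The lowest mutant library was above the highest control, by a small margin. The log2 fold change was 0.58 ± 0.17 (adjusted p = 0.0204, edgeR quasi-likelihood test), so that 1 of the 6 members tested in c-Kit+ cells rose, where 14.8% of all tested genes were called higher. The call was lost without control library 2 (adjusted p = 0.0504 by edgeR, log2 fold change 0.54), control library 3 (0.0718 and 0.51), mutant library 1 (0.0880 and 0.48) or mutant library 3 (0.0754 and 0.53), while the direction stayed. H1f2 shares 8.53% of its 50-base stretches with H1f3 or H1f4, so some of its reads may map to more than 1 place.

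H1f0, the replacement linker histone, had 127, 121 and 129.5 CPM in control c-Kit+ libraries, and the mutant libraries had 173, 152 and 173 CPM. The groups did not overlap. Its log2 fold change of 0.34 ± 0.07 had an adjusted p of 0.00335 (edgeR quasi-likelihood test) but was under the minimum of 0.5; without that minimum, 39.2% of all tested genes would pass. H1f1, the S-phase variant with a short counted exon, was at 4.11, 4.95 and 4.59 CPM in control libraries of c-Kit+ cells and at 3.72, 3.80 and 3.68 CPM in mutant ones, which also did not overlap. Its log2 fold change of −0.34 ± 0.17 did not pass (adjusted p = 0.136, edgeR quasi-likelihood test).

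The remaining members were counted too rarely for a call in c-Kit+ cells. H1f3 differed by 0.11 ± 0.60 and H1f4 by −0.60 ± 0.59 on the log2 scale, and the control and mutant libraries of both overlapped. Part of the counted exon of H1f4 is shared with H2bc6, a core histone gene, and strand was not used in counting. H1f5 and H1f6 did not reach the filter on low counts: H1f5 had 9, 0 and 6 counts in control and 8, 45 and 22 in mutant c-Kit+ libraries, and H1f6 0 to 8 counts in either group. H1f5 passed the filter in some fits with a library left out, through the mutant libraries with 45 and 22 counts. Its adjusted p was 0.0469 without mutant library 1 (edgeR quasi-likelihood test). Without control library 1, 2 or 3 it was 0.0517, 0.135 and 0.128 by the same test. Since H1f5 entered these fits through the group where it is high, they give no support for a rise.

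In Thy1+ cells, no member was called between genotypes, nor was any gene (0% of 17416), by the quasi-likelihood test without a replicate block. H1f10 was at 54.0, 68.8 and 76.1 CPM in control Thy1+ libraries and 50.3, 48.4 and 56.4 CPM in the mutants, with overlapping groups and a log2 fold change of −0.35 ± 0.15 (adjusted p = 0.391, edgeR). H1f0 was at 237, 192 and 207 CPM in control libraries and 277, 216 and 299.9 CPM in the mutants, again overlapping, with 0.33 ± 0.14 (adjusted p = 0.401, edgeR). H1f2 had 17.4, 15.5 and 12.6 CPM in control libraries and 22.2, 16.1 and 18.2 CPM in the mutants, which overlapped (log2 fold change 0.32 ± 0.18, adjusted p = 0.483, edgeR). At an unadjusted p under 0.05, 2 of the 7 tested members passed, H1f0 and H1f10, where 12.4% of all genes did. The edgeR exact test and DESeq2 called 294 and 384 genes but no member.

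The same-numbered libraries of the Thy1+ groups deviated together, and the differences were also fitted with the replicate number as a block. For H1f0, the mutant library was 1.17, 1.13 and 1.45 times the control library of the same number, and for H1f10 0.931, 0.704 and 0.741 times. With the block, the adjusted p was 0.00139 for H1f0, 0.00365 for H1f10 and 0.0451 for H1f2 (edgeR quasi-likelihood test), with log2 fold changes of 0.32 ± 0.06, −0.34 ± 0.08 and 0.31 ± 0.11. All 3 stayed under the minimum of 0.5, and 29.2% of all genes passed an adjusted p under 0.05 in this fit.

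Cell markers moved with genotype in Thy1+ cells as well, although no single marker was called without the replicate block. All 7 Sertoli, 6 stromal, 6 macrophage, 5 endothelial and 5 Leydig markers had positive log2 fold changes, with medians of 0.60, 0.32, 0.40, 0.26 and 0.29 against 0.02 over all genes, and those of the 4 mast cell and 3 erythroid markers were 1.09 and 1.42. The 6 undifferentiated and 6 germ cell markers all had negative ones, with medians of −0.86 and −0.37. Mixed signs were seen in 2 lists. Of 5 myoid markers 4 were positive and 1 negative (median 0.22). Of 4 differentiating markers only Kit was positive (0.14) and 3 were negative (median −0.18). The undifferentiated markers summed to 565 to 810.0 CPM in controls and 378 to 452 CPM in mutants, without overlap. The part of these markers in the H1 values was not tested. Without library 1 of the Thy1+ controls, the log2 fold changes were 0.41 for H1f0, −0.48 for H1f10 and 0.42 for H1f2, and without library 1 of the mutants 0.29, −0.33 and 0.18, with no call in either case.

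**Figure D3:**
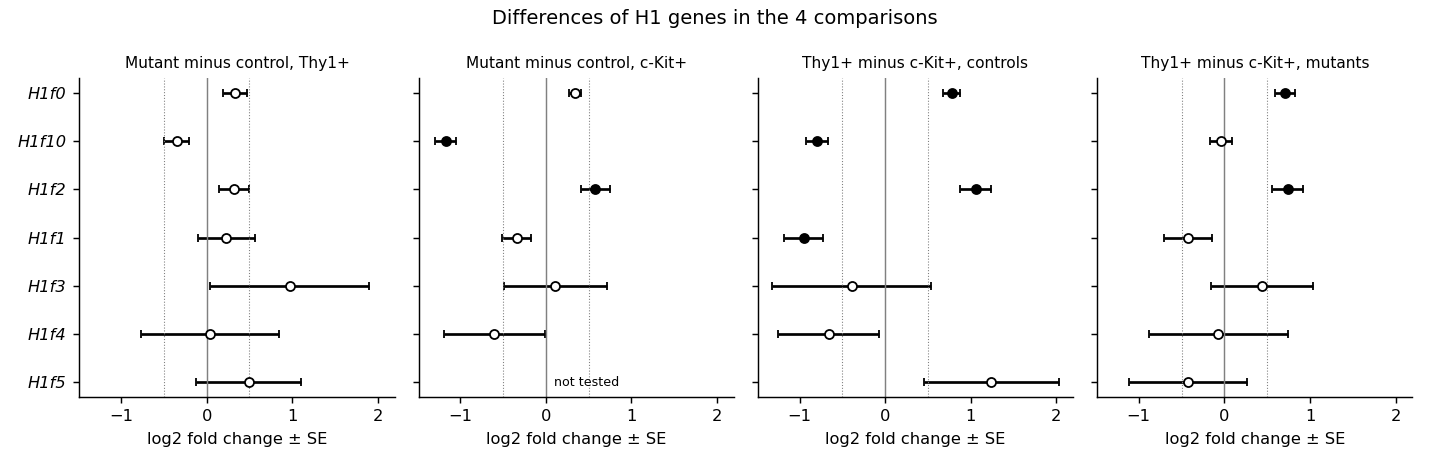
Log2 fold change with its standard error (x axis) for the H1 genes in 4 comparisons; filled points were called, dotted lines mark the minimum of 0.5. H1f10 fell in mutant c-Kit+ cells (−1.17) and differed by −0.04 between mutant Thy1+ and c-Kit+ cells.

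Whether H1f10 responded more in c-Kit+ than in Thy1+ cells was tested as an interaction over all 12 libraries. The difference between both effects was −0.75 ± 0.20 on the log2 scale, with an unadjusted p of 0.00261 and an adjusted p of 0.386 (edgeR quasi-likelihood test), which did not pass. With the replicate number as a block the difference was −0.76 ± 0.14 with an adjusted p of 0.0228 (edgeR), so this call depends on the block, and the same-numbered libraries did not meet the criterion for pairing across all 4 groups. No gene passed the test without the block (0% of 18002), and 10.0% of all genes, but of the 7 tested members only H1f10, had an unadjusted p under 0.05. DESeq2 called 59 genes and no member, with H1f10 at −0.83 and an adjusted p of 0.0513. For H1f0, H1f2 and H1f1 the difference was 0.08 ± 0.16, 0.33 ± 0.26 and −0.51 ± 0.36.

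The H1 genes differed between the populations in controls, in both directions. H1f0 and H1f2 were higher in Thy1+ than in c-Kit+ cells, with log2 fold changes of 0.78 ± 0.10 (adjusted p = 0.000539) and 1.06 ± 0.18 (adjusted p = 0.00305, both edgeR quasi-likelihood). H1f10 and H1f1 were lower in Thy1+ cells, by −0.80 ± 0.13 (adjusted p = 0.00230) and −0.95 ± 0.23 (adjusted p = 0.0140, both edgeR quasi-likelihood). For each of these 4 genes the control Thy1+ and c-Kit+ libraries did not overlap, but the share of all genes without overlap was not determined. Of 7 tested members, 2 were called higher and 2 lower, where 20.7% and 7.08% of all tested genes were. Without control c-Kit+ library 2, the adjusted p of H1f1 was 0.0584 (edgeR). The 6 macrophage markers were likewise all called higher in Thy1+ controls, at 77.7 to 145 CPM in sum against 15.5 to 44.1 CPM, and 4 of 5 myoid markers were called higher too. Lower in Thy1+ controls were 4 of 5 Leydig markers (median −1.46) and 4 of 4 mast cell markers (median −2.96). The part of the marker differences in these values was not tested. This comparison uses the same control c-Kit+ libraries as that between genotypes.

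In mutants, H1f10 was not called between the populations; the test of whether this differs from controls is the interaction already given, which passed only with the replicate block. H1f10 was at 51.7 ± 4.16 CPM in mutant Thy1+ libraries and at 54.6 ± 8.81 CPM in mutant c-Kit+ libraries, a log2 fold change of −0.04 ± 0.13 (adjusted p = 0.845, edgeR quasi-likelihood test) with overlapping libraries. H1f0 and H1f2 were still called higher in Thy1+ cells, at 0.71 ± 0.12 (adjusted p = 0.00367) and 0.74 ± 0.18 (adjusted p = 0.0169, both edgeR quasi-likelihood), and H1f1 was at −0.42 ± 0.28 (adjusted p = 0.284 by edgeR). Called higher were 15.3% and called lower 5.03% of all tested genes, the latter including no member. The call of H1f2 was lost without mutant c-Kit+ library 2 (adjusted p = 0.0646, edgeR) or 3 (0.0521). Markers differed between the mutant populations as well: 6 of 6 stromal, 6 of 6 macrophage and 4 of 5 myoid markers were called higher in Thy1+ cells (medians 2.41, 1.74 and 2.04), and 5 of 5 Leydig and 4 of 4 mast cell markers lower (medians −2.08 and −2.81). The 7 Sertoli markers had a median of −0.64 and none was called. Their part in the H1 values was not tested.

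These differences changed the proportions of the H1 transcripts that poly(A) selection kept. The shares and sums given here are of those transcripts and not of all H1 mRNA. In control c-Kit+ libraries, H1f10 gave 62.4% ± 1.89 and H1f0 31.0% ± 1.20 of the summed H1 level per length. In mutant c-Kit+ libraries, H1f0 gave 52.7% ± 2.35 and H1f10 37.2% ± 2.96, so the order was turned, and the shares of neither gene overlapped between genotypes. The ratio of H1f0 to H1f10 per length was 0.489, 0.535 and 0.467 in control and 1.58, 1.46 and 1.24 in mutant c-Kit+ libraries. In Thy1+ cells it was 2.03, 1.29 and 1.26 in control and 2.55, 2.07 and 2.46 in mutant libraries, with every mutant library above every control. The summed level of the 8 genes was 177 ± 12.8 CPM per kb in control and 138 ± 12.7 CPM per kb in mutant c-Kit+ cells, against 169 ± 5.44 and 181 ± 22.2 CPM per kb in Thy1+ cells. With 3 libraries against 3, an exact permutation test of such a value cannot go below 0.10, and none was run.

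**Figure D4:**
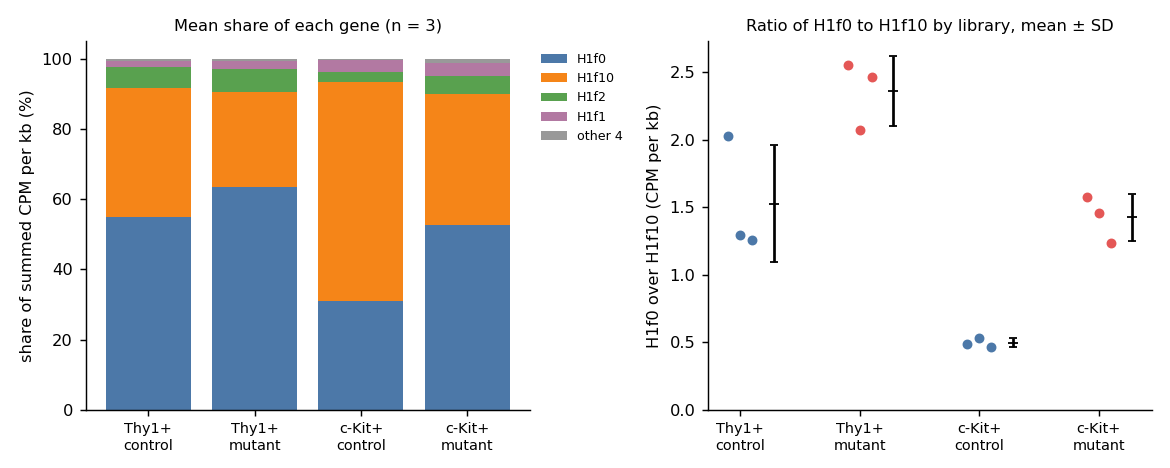
Left, mean share (%) of each H1 gene in the summed CPM per kb of the 8 genes in each group, for transcripts kept by poly(A) selection. Right, the ratio of H1f0 to H1f10 per length in each library, with mean and SD. Control c-Kit+ libraries lie near 0.5 and mutant c-Kit+ libraries at 1.24 to 1.58.

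The libraries of mutant c-Kit+ cells also differed in cell markers. All 7 Sertoli, 6 of 6 stromal and 5 of 5 endothelial markers were called higher, with median log2 fold changes of 1.16, 0.80 and 1.12, against 0.01 over all tested genes. The shares called over all tested genes were 14.8% higher and 7.41% lower. The Sertoli markers summed to 528 to 1386 CPM in control and 2183 to 2415 CPM in mutant c-Kit+ libraries, ranging from Gata1 (0.85) to Amh (1.61). The 6 macrophage markers, at 15.5 to 44.1 CPM in sum in controls and 38.4 to 57.7 CPM in mutants, had log2 fold changes from 0.48 to 0.85 and none was called. Leydig, peritubular myoid and mast cell markers were called higher for 3 of 5, 3 of 5 and 3 of 4 tested genes. The other 2 myoid markers had negative log2 fold changes, down to Tagln (−0.28), whereas all 5 Leydig and 4 mast cell markers had positive ones. Of the 6 germ cell markers, Tex101 was called lower (−1.96) and Ddx4 stood at −0.22, and their sum was 2144 to 2554 CPM in control and 1582 to 1811 CPM in mutant c-Kit+ libraries. Among undifferentiated markers Etv5 rose by 1.08 and Lin28a fell by 1.00 on the log2 scale, among differentiating markers Stra8 fell by 0.67 and Kit was at 0.10, and the 1 tested erythroid marker, Alas2, was at 0.10. The part of these markers in the H1 values was not tested, and in bulk libraries fewer cells of a type and less RNA per cell cannot be told apart.

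Genes with the pattern most like each H1 gene over the 12 libraries were named as a description, since the libraries form 4 groups and share them. H1f0 was closest to Itgb1, Gng2 and Frk (Pearson r of log2 CPM 0.995, 0.992 and 0.992), of which Itgb1 encodes the integrin beta 1 chain. H1f2 was closest to Gpr34 (0.988), a gene without a symbol (0.978) and Lyz2 (0.976), and Gpr34 and Lyz2 are known from myeloid cells. H1f1 was closest to Nup85, a nuclear pore gene (0.974), Sgo1, which protects centromeric cohesion (0.968), and Eea1 (0.968). H1f10 was closest to Dvl1, a Wnt signal transducer (0.969), Cutc (0.962) and Celf5 (0.957). Among themselves, H1f0 and H1f2 had r = 0.943, whereas H1f10 had −0.709 with H1f0 and −0.764 with H1f2. The rarely counted H1f3, H1f4 and H1f5 were closest to Iqcm, Olfr1259 and Dynlt1f (0.945, 0.911 and 0.897), values that rest on 45 reads or fewer in each library.

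Related genes were compared in the same c-Kit+ libraries. Replication-dependent core histone genes have mRNAs that normally end in the same kind of stem-loop, so their values too describe transcripts kept by poly(A) selection. Of 25 tested (of 55 in the table), 11 were called higher and 1 lower, where 14.8% and 7.41% of all tested genes were. The median log2 fold change of these core histone genes was 0.69 against 0.01 over all genes. In every library 37 of the 55 were under 1 CPM, among them the extremes, H3c15 (2.32) and H4c11 (−1.64). H3c15 was at 0.0572 to 0.175 CPM in control and 0.443 to 0.584 CPM in mutant c-Kit+ libraries. H4c11 was at 0.495 to 0.601 CPM in control and 0.116 to 0.243 CPM in mutant ones. Both passed the filter on low counts through the group where they are high, so their values give no support for a change. How many other core histone genes passed in this way was not determined, which limits the counts called and the median. In the same libraries, 5 of 17 S phase genes were called lower and none higher, with a median of −0.32, from Ccne2, a cyclin of S phase entry (−1.04), to Tyms (−0.03). The genes that transcribe and process histone mRNA had 3 of 12 called lower, namely Npat (−0.69), the coactivator of histone genes, Casp8ap2 (−0.59) and Zfp473 (−0.87), and the highest was Lsm10 (0.03). Their median was −0.26, and Npat and Casp8ap2 were named after their values were seen.

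Of 6 histone chaperones known to handle H1, Nasp alone was called, where 14.8% of all tested genes were called higher and 7.41% lower. Control c-Kit+ libraries had 605, 745 and 625 CPM and mutant ones 317, 329 and 321 CPM, without overlap, with a log2 fold change of −1.09 ± 0.08 (adjusted p = 7.65e-05, edgeR quasi-likelihood test). Set, another chaperone, was at 0.34, under the minimum. Among 10 genes for HMG proteins and Parp1, which compete with H1 for nucleosomes, Hmgn5 was called higher (0.70) and Hmgn2 was lowest (−0.33). Of 8 replacement histone genes, Macroh2a2 was called higher (0.58) and Cenpa, the centromeric histone, was lowest (−0.32). The testis-enriched core histone genes H2bc1 and H2ac1 were both called lower (−2.73 and −1.63). H2bc1 was at 0.170 to 0.463 CPM in mutant against 1.51 to 2.12 CPM in control c-Kit+ libraries. H2ac1 was at 0.118 to 0.174 CPM in mutant against 0.290 to 0.744 CPM in control ones. Both passed the filter on low counts through the controls, where they are high, so these calls give no support for a fall. The oocyte H1 gene H1f8 was at −0.79 ± 0.41 (adjusted p = 0.151, edgeR quasi-likelihood test). In Thy1+ cells, the quasi-likelihood test without the replicate block called no gene at all. H2bc1 was there at 0.336, 1.11 and 0.666 CPM in controls and at 0, 0 and 0.130 CPM in mutants, without overlap. Nasp was at 318, 489 and 407 CPM in Thy1+ controls and at 228, 295 and 238 CPM in the mutants, also without overlap, with a log2 fold change of −0.67 ± 0.18 (adjusted p = 0.268, edgeR quasi-likelihood test).

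**Figure D5:**
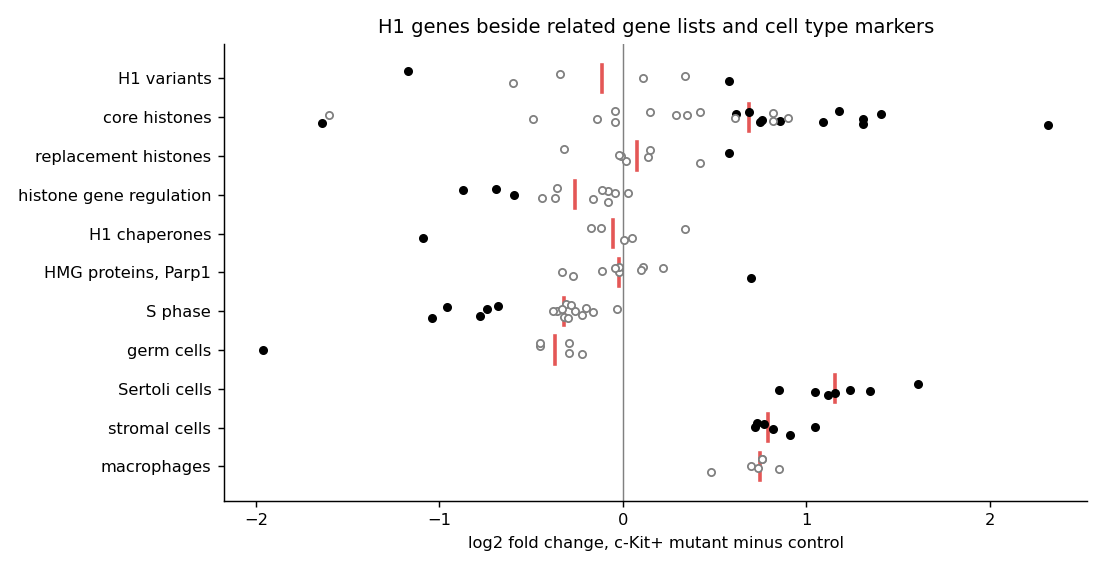
Log2 fold change in c-Kit+ cells, mutant minus control (x axis), of each tested gene of the H1 list, related lists and marker lists (rows); filled points were called and red bars are medians. H1 genes lie on both sides of 0, core histone genes mostly above it (median 0.69), S phase genes below it (median −0.32) and Sertoli markers above it (median 1.16).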

How the data were processed

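RNA-seq counts of 12 libraries were used. The authors used Trimmomatic 0.39 for trimming, HISAT2 2.1.0 for alignment (mm10) and featureCounts (2.0.3 in the table header) for counting on RefSeq exons. The deposited table holds raw, unnormalized counts. The command in the header sets neither strand nor fragment counting, so that both reads of a pair count and overlapping genes are not told apart by strand; multiply mapped reads were not set to be counted. Libraries were selected by poly(A) tail. Of 27179 genes, 25275 had a symbol, and the others held 0.511% to 0.776% of the counts of a library. The precision of rare members is limited by their counts.

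Differential expression was tested on the whole table with edgeR 4.0.16 (R 4.3.3): TMM, filterByExpr (minimum count 10), the quasi-likelihood F test and Benjamini-Hochberg adjustment over all tested genes, called at an adjusted p below 0.05 with a log2 fold change beyond 0.5 in size (interaction: adjusted p alone). Levels are CPM after TMM over all libraries, also divided by counted exon length. Likeness used log2 CPM with a prior count of 2. Alternatives were the edgeR exact test (the study's choice), DESeq2 1.42.0, its size factors in edgeR, library size alone, other filters, a fit of all 12 libraries, no minimum fold change, a replicate block and each library left out. The steps were tested on simulated counts.

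After subtraction of group means, same-numbered libraries correlated at 0.269 to 0.494 in Thy1+, 0.101 to 0.124 in c-Kit+ and 0.134 to 0.298 between controls. All were over the limit of 0.1, so these comparisons met the criterion for pairing, while that between mutants and the interaction did not. The tests given without a block took no account of pairing, and the replicate block was fitted as an alternative in every comparison. Named are the members, Chd8, for each member the 3 genes most like it, and the extremes of each list in c-Kit+ cells; others were chosen after their values were seen. Members and lists were chosen with earlier results of these data known.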

Additional observations from a re-analysis of the deposited data

How the results depend on the processing

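The number of H1 genes called moved by more than 1.5 times in few settings. With each library left out in turn it was 1 to 2 in c-Kit+ cells and 1 to 2 between mutant populations. Without mutant c-Kit+ library 1, the 2 genes called in c-Kit+ cells were H1f10 and H1f5 in place of H1f10 and H1f2. H1f5 entered that fit through the group where it is high. With the replicate block, 1 H1 gene, H1f10, was called in the interaction (adjusted p = 0.0228 by edgeR), where 446 genes were called in place of 0; the cause was not tested, and only 10 of 18 same-numbered pairs correlated over 0.1. The block changed no other call of an H1 gene, but in Thy1+ cells it moved the calls over all genes from 0 to 1414 (250 in a fit of all 12 libraries). Of 296 alternative values for H1f0, H1f1, H1f2 and H1f10, 281 kept direction and call and 7 turned sign. Ranges that crossed 0 when a library was left out were −0.12 to 0.08 for H1f10 between mutants, −0.05 to 0.18 for H1f0 in the interaction and −0.07 to 0.47 for H1f1 in Thy1+ cells. Of 194 values for the rarer members, 14 turned sign. In Thy1+ cells these were H1f4 (−0.79 to 0.58, and −0.13 with the block) and H1f5 (−0.32 to 0.87); in c-Kit+ cells H1f3 (−0.34 to 0.57); between controls H1f3 (−1.56 to 0.14); between mutants H1f3 (−0.23 to 0.88), H1f4 (−0.86 to 0.48) and H1f5 (−1.22 to 0.17); in the interaction H1f4 (−1.14 to 0.22). Their low counts limit any statement on direction.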
